A study of Mus musculus with 15 samples.

Results

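The comparison described here set vesicle-treated irradiated submandibular glands of day 30 (IR_iEV_30d, 3 libraries) against nontreated glands (NT, 3 libraries), 6 of the 15 bulk RNA libraries of the study. It was chosen by the library labels alone and asks which transcripts still differed from the nontreated gland a month after irradiation although vesicles had been given. All glands came from male wildtype C57BL/6 mice aged 8 to 10 weeks. IR_iEV_30d glands had received 15 Gy at the gland region and weekly injections of iEVs into the gland from day 1, and were collected at day 30. IR_30d glands, used beside them, had the same dose and collection day without iEVs, and NT glands had neither. The labels do not spell out iEV; the series title speaks of extracellular vesicles of mesenchymal stem cells. No group is named as irradiated and injected with vehicle, so vesicles and injection cannot be told apart. The collection day of the NT glands is not given in the sources used here, so age at collection and irradiation cannot be told apart either. The labels do not say that each library is a mouse of its own. The p-values hence weigh a difference against the scatter of these libraries, some of which may be technical.

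The submandibular gland makes saliva in acinar cells and, in male mice, stores growth factors and kallikreins in the granular convoluted tubules of its ducts. Ionizing radiation breaks DNA and stabilises p53, a transcription factor that switches on genes for cell cycle arrest, repair and cell death as well as its own inhibitor Mdm2. Irradiated tissue can also turn on interferon-stimulated genes and the presentation of peptides on MHC molecules, and it can remodel the collagen-rich matrix laid down by fibroblasts. Each of these programmes is described below by its members.

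The 6 libraries held 29731963 to 52201098 counts. Both groups carried the markers of the labelled tissue: mean log2 CPM (counts scaled to library size, on a log2 scale; CPM in full below) of the acinar list ran from 8.33 to 9.10 in NT and from 8.18 to 8.90 in IR_iEV_30d, and of the duct list from 8.49 to 8.66 and from 8.63 to 8.70. Markers of the neighbouring sublingual gland stood apart in 1 library of each group. Their mean log2 CPM was 3.46 in NT replicate 1 and 4.88 in IR_iEV_30d replicate 2, and between -2.00 and -1.38 in the other 4 libraries. The parotid list stood at 7.89 in IR_iEV_30d replicate 2 and between 3.52 and 4.39 in the other 5 libraries. The counts of all genes and of the p53, antigen presentation and matrix lists are therefore also given without these 2 libraries. For the granular tubule list the median is. The counts of the other lists are not given without them.

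Few genes differed from the nontreated gland. Of 16042 genes tested with edgeR's quasi-likelihood test, 177 differed from NT at an adjusted p under 0.05, which is 1.1%. Of these, 105 were higher (0.655% of all genes tested) and 72 were lower (0.449%), and the median change of all genes was -0.004 on the log2 scale. The 2 groups did not overlap in any of the 177 genes, beside 17% of all genes tested. The 177 were chosen by their p from these same libraries, so this separation adds no support to the calls. In bulk tissue, fewer cells of a type and less RNA per cell cannot be told apart, and this holds for every level given here. Without the 2 libraries high in sublingual markers 103 genes passed, 73 higher and 30 lower. Without NT replicate 1 the number was 114, and without NT replicate 2 it was 113. Without IR_iEV_30d replicate 3 the number of lower genes was 41. A fit of the 6 libraries alone called 58 genes. DESeq2 called 410 of 15286 genes, 224 higher and 186 lower. The limma-voom fit called 182 of 16042, 106 higher and 76 lower. With edgeR 2077 of the 16042 genes had an unadjusted p under 0.05 against NT, in either direction. In the direct contrast of IR_iEV_30d with IR_30d 2066 did. The list counts below at an unadjusted p stand beside these totals.

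Of the 105 higher genes 50 changed by more than 2-fold, with a median of 0.97 log2, and of the 72 lower genes 24 did, with a median of -0.82. Beside these values, IR_30d glands (718 genes different from NT, 4.48% of those tested) had a median change from NT of 0.99 over the same 105 genes and of -0.55 over the same 72. In IR_30d 94 of the 105 were also called higher and 37 of the 72 called lower. The genes were selected on IR_iEV_30d, which tends to enlarge its own medians and not those of IR_30d. Both comparisons also use the NT libraries. These medians and counts are therefore a description and do not compare the 2 irradiated groups. The direct contrast of IR_iEV_30d with IR_30d called 5 of the 177 genes, 1 higher and 4 lower. Over all genes tested it called 128 (0.798%), 27 higher and 101 lower. It shares the IR_iEV_30d libraries with the contrast against NT, so this count is a description too. The totals of DESeq2 and limma-voom over all genes in the direct contrast are not given here. Their list counts there hence have no share of all genes beside them.

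**Figure D1:**
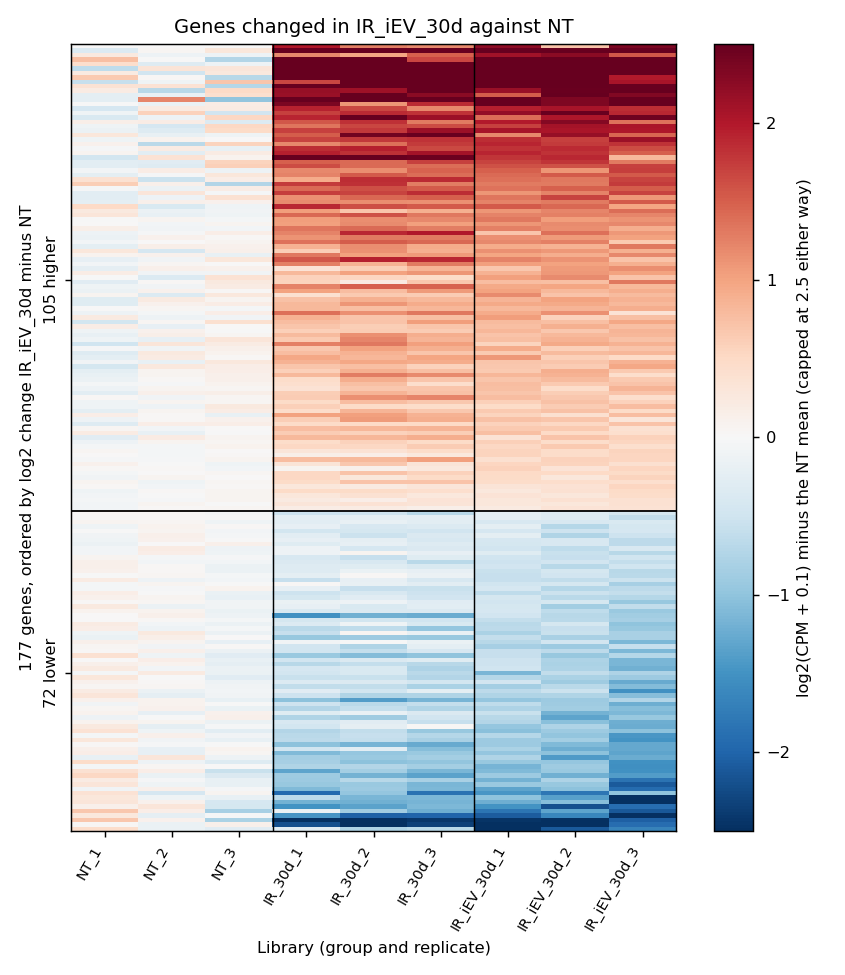
Each row is 1 of the 177 genes past the threshold in IR_iEV_30d against NT, ordered by log2 change, and each column is a library of NT, IR_30d or IR_iEV_30d; colour gives log2(CPM + 0.1) minus the NT mean. The 105 higher genes are red and the 72 lower genes blue in the 3 IR_iEV_30d libraries, and IR_iEV_30d replicate 3 shows the deepest blue for many of the lower genes.

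Promoter letters are shown for called genes tied to p53, interferon or antigen presentation in which a recognition element of p53 or of interferon signalling lies close to the start. The p53 response element is a pair of equal short sites in a row. It was searched without a spacer, with at most 2 mismatches and with both core parts kept, in the 250 bases before each start of RefSeq's mouse promoter table (build GRCm38.p6), matched by gene symbol. It reads the same on both strands. It was present in 0.1% of all promoters of the table, and among the genes higher in IR_iEV_30d it was present in Cdkn1a, at chr17:29090898-29090977 on the plus strand, and in Rps27l, at chr9:66946266-66946345 on the plus strand. Of the 14 p53 targets called higher, 12 had a promoter in the table, and 1 held the element. Capitals mark the element in the sequences, which run 5′ to 3′ in the direction of the gene.
Cdkn1a: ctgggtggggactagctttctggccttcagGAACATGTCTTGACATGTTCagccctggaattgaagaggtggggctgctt
Rps27l: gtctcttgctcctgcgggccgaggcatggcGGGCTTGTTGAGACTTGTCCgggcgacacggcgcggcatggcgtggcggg

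The core of the interferon-stimulated response element (GAAA, any 2 bases, GAAA, on either strand and with overlapping matches allowed) was searched in the same windows. It was present in 3.0% of all promoters of the table. All 3 interferon-stimulated genes called higher held it, namely Oas3 at chr5:120777695-120777764, Oas1g at chr5:120887614-120887661 and Bst2 at chr8:71537557-71537632, each on the minus strand. Of the 13 antigen presentation genes called higher 11 had a promoter in the table, and 2 held it: B2m at chr2:122147518-122147587 and Ctss at chr3:95526735-95526785, both on the plus strand. The core was also present in Rps19, a ribosomal protein gene called higher, and in Nav1, Fbn1 and Clca3a2, called lower, whose letters are not shown. In all, 6 of the 84 genes called higher with a promoter in the table held it (7.1%), as did 3 of the 50 called lower (6.0%), beside 3.5% of all genes in the table. Capitals mark the core, and in Oas1g and Bst2 2 overlapping matches make a longer run.
Oas3: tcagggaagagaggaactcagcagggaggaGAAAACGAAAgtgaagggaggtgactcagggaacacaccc
Oas1g: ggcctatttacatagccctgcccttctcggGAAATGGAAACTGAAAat
Bst2: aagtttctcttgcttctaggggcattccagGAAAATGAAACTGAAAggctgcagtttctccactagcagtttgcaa
B2m: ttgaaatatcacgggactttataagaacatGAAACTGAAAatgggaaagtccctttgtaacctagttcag
Ctss: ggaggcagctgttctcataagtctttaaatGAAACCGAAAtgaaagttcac
A match is a description of these letters and not evidence of binding.

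Genes that p53 is known to switch on were still higher in many members. Of 33 p53 targets tested 14 rose and 0 fell, beside 0.655% of all genes tested, and the list's median change was 0.64 log2 beside -0.004 for all genes. In 24 of the 33 the 2 groups did not overlap, beside 8.61% of all genes, and 31 had a positive change. Without the libraries high in sublingual markers 13 rose. The list's mean log2 CPM was 3.16 to 3.26 in NT, 4.26 to 4.35 in IR_30d and 4.10 to 4.34 in IR_iEV_30d. Trp53, the gene of p53 itself, read 17.2, 20.2 and 13.6 CPM in NT and 15.1, 14.6 and 14.3 CPM in IR_iEV_30d, which overlap (log2 -0.21 ± 0.14 SE, adjusted p = 0.529).

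Of the arrest genes, Cdkn1a encodes p21, an inhibitor of cyclin-dependent kinases, and its promoter holds the element shown above. It read 2.92, 1.76 and 3.03 CPM in NT and 35.4, 34.0 and 30.5 CPM in IR_iEV_30d. Every vesicle-treated library was far above every nontreated one, and the change was 3.67 ± 0.25 log2 (adjusted p = 2e-06). Ccng1, cyclin G1, read 95.7, 102 and 105 CPM in NT and 234, 242 and 158 CPM in IR_iEV_30d, with replicate 3 lowest of the treated glands (1.06 ± 0.14, adjusted p = 0.000477). Gtse1, a microtubule-associated protein that restrains p53, changed by 1.36 ± 0.23 (adjusted p = 0.00481), and Psrc1, a spindle protein, by 3.27 ± 0.31 (adjusted p = 6.8e-06). Psrc1 was scarcely counted in NT, at 0.111 to 0.346 CPM, and read 2.25 to 2.72 CPM in IR_iEV_30d. None of the 35 listed cell cycle genes tested passed with edgeR, DESeq2 or limma-voom, and 0 had an unadjusted p under 0.05 with edgeR. Ccnd2, cyclin D2, is not on that list and was called lower (-0.70 ± 0.13, adjusted p = 0.00952). It lost its call without NT replicate 1 and in the fit of the 6 libraries (adjusted p = 0.138 in the latter).

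Feedback and stress members rose as well. Mdm2, the ubiquitin ligase that degrades p53, read 30.1, 27.7 and 29.1 CPM in NT and 46.0, 45.4 and 37.6 CPM in IR_iEV_30d. The groups did not overlap, but at 0.57 ± 0.11 log2 this was the smallest of the 14 changes (adjusted p = 0.00977), and without NT replicate 2 Mdm2 missed the threshold (adjusted p = 0.0504). Gdf15, a stress cytokine, read 1.80, 1.04 and 1.20 CPM in NT and 15.1, 39.3 and 14.9 CPM in IR_iEV_30d. Replicate 2, where sublingual markers were high, was more than 2-fold above the other treated libraries, and the change of 4.10 ± 0.41 log2 was the largest of the list (adjusted p = 0.000312). It was 3.49 at its smallest over all alternatives. Sesn2, which restrains growth signalling through mTORC1, changed by 0.99 ± 0.12 (adjusted p = 0.000112), Phlda3, a repressor of Akt, by 1.47 ± 0.13 (adjusted p = 1.92e-06), and Zmat3, an RNA-binding zinc finger protein, by 1.23 ± 0.11 (adjusted p = 2.87e-06).

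Ephx1, the microsomal epoxide hydrolase, had the lowest p of the list. It read 51.4, 58.8 and 55.4 CPM in NT and 198, 181 and 244 CPM in IR_iEV_30d (1.91 ± 0.10, adjusted p = 1.18e-08). Eda2r, the ectodysplasin A2 receptor, read 5.56, 4.40 and 6.12 CPM in NT and 20.2, 18.9 and 15.2 CPM in IR_iEV_30d (1.74 ± 0.15, adjusted p = 1.61e-06). Both genes were 3-fold or more higher in group mean, with no library out of place. Inka2, an inhibitor of the kinase Pak4, changed by 2.32 ± 0.26 (adjusted p = 4.64e-05). Rps27l, a ribosomal-like protein and p53 target that was not on the list and was chosen for its promoter after its values were seen, read 37.6, 34.8 and 36.4 CPM in NT and 53.6, 50.1 and 53.4 CPM in IR_iEV_30d (0.53 ± 0.09, adjusted p = 0.00348).

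Beside these changes, IR_30d glands showed changes from NT of 3.70 ± 0.25 in Cdkn1a, 0.82 ± 0.11 in Mdm2, 1.44 ± 0.15 in Ccng1, 4.96 ± 0.41 in Gdf15, 1.76 ± 0.10 in Ephx1 and 1.96 ± 0.15 in Eda2r. In IR_30d 19 of the 33 targets rose, beside 3.19% of all genes, with a median of 0.82. The direct contrast of IR_iEV_30d with IR_30d called 0 of the 33 (27 genes or 0.168% of all were called higher and 101 or 0.63% lower), with a median of -0.09; 3 were lower at an unadjusted p under 0.05, and DESeq2 and limma-voom called 0. Its estimates were -0.02 ± 0.21 for Cdkn1a (adjusted p = 0.977), -0.86 ± 0.33 for Gdf15 (adjusted p = 0.295) and -0.37 ± 0.14 for Ccng1 (adjusted p = 0.274). These p-values do not show that the irradiated groups were equal.

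**Figure D2:**
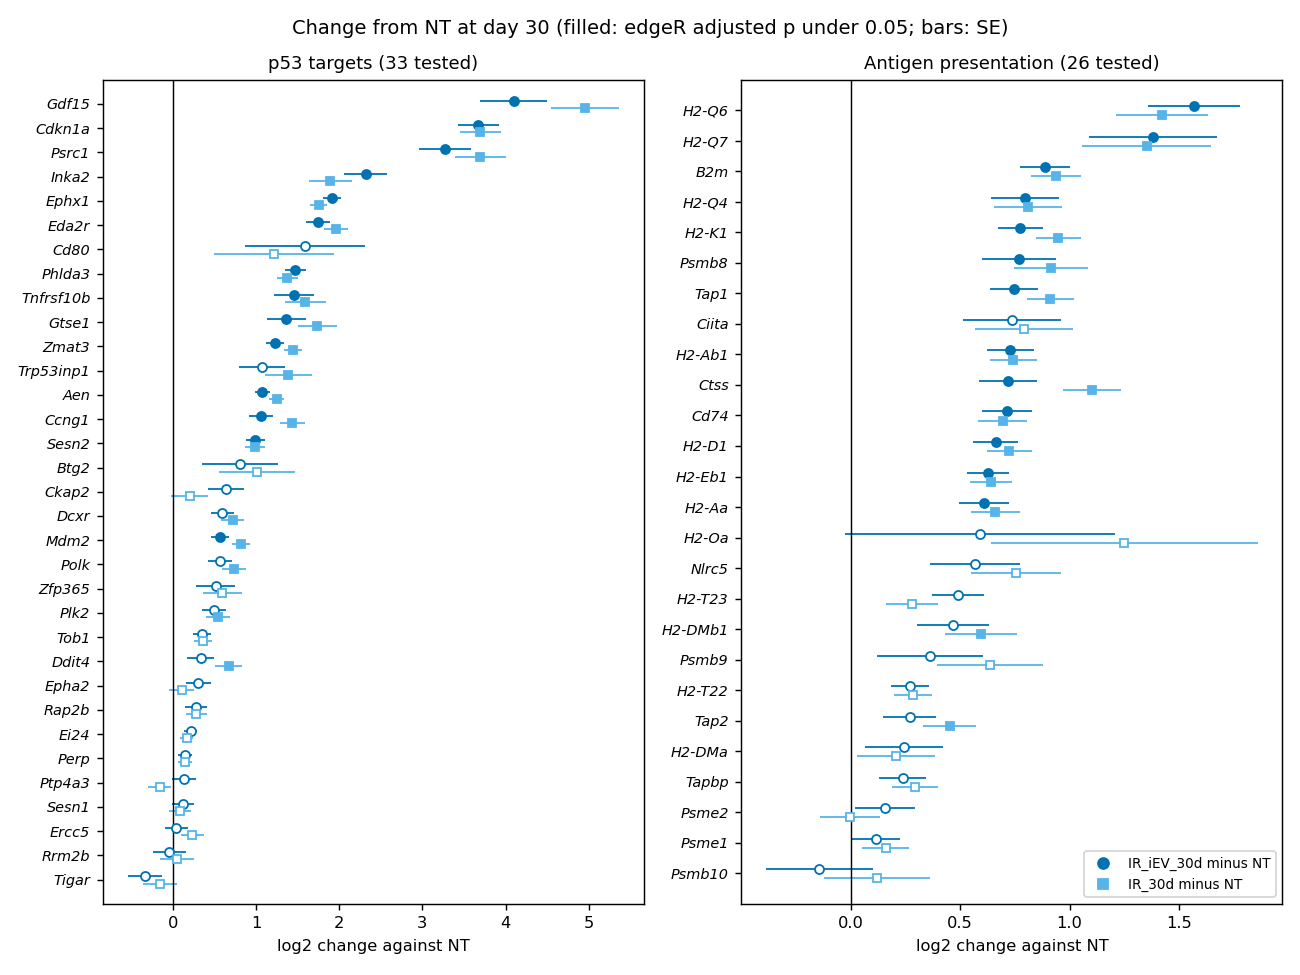
Points are log2 changes from NT with SE bars for the 33 p53 targets (left) and the 26 antigen presentation genes (right), dark circles for IR_iEV_30d and light squares for IR_30d, filled where the edgeR adjusted p was under 0.05. In IR_iEV_30d 14 and 13 points are filled, all to the right of 0, from 0.57 (Mdm2) to 4.10 (Gdf15) and from 0.61 (H2-Aa) to 1.57 (H2-Q6).

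Death genes moved in 3 members. Of 30 apoptosis genes tested 3 rose and 0 fell, beside 0.655% and 0.449% of all genes, with a median of 0.09; DESeq2 and limma-voom also called 3. Bax, which opens the mitochondrial outer membrane, read 7.74, 9.15 and 8.76 CPM in NT and 17.2, 15.1 and 16.2 CPM in IR_iEV_30d (0.92 ± 0.11, adjusted p = 9.35e-05). Bbc3, the BH3-only protein Puma, read 3.72, 4.94 and 4.77 CPM in NT and 8.52, 8.20 and 11.3 CPM in IR_iEV_30d (1.06 ± 0.15, adjusted p = 0.000705). The treated libraries of both genes all lay above the nontreated ones, by about as much. Tnfrsf10b, a death receptor that is also on the p53 list, changed by 1.46 ± 0.24 (adjusted p = 0.00391), and Aen, an exonuclease that enhances apoptosis, by 1.07 ± 0.09 (adjusted p = 1.92e-06).

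Of 30 DNA repair genes 1 rose and 0 fell with edgeR, beside 0.655% and 0.449% of all genes. DESeq2 called 2 higher and limma-voom 1. The gene called by edgeR was Mgmt, which removes alkyl groups from guanine, at 0.974, 0.849 and 1.57 CPM in NT and 4.86, 4.80 and 4.78 CPM in IR_iEV_30d (2.05 ± 0.21, adjusted p = 2.17e-05). The 3 treated libraries were nearly alike and all above NT. Among the largest rises of genes on no list were Dyrk3, a dual-specificity kinase, at 2.46, 2.92 and 2.20 against 9.06, 9.39 and 7.99 CPM (1.81 ± 0.14, adjusted p = 1.19e-06), and Dglucy, a D-glutamate cyclase, at 10.3, 9.53 and 12.1 against 27.3, 30.1 and 30.3 CPM (1.45 ± 0.10, adjusted p = 1.77e-07). Dynlt2a1, a dynein light chain, changed by 2.59 ± 0.26 (adjusted p = 1.34e-05). Dyrk3 and Dglucy kept their calls in all 16 alternatives. Mgmt and Dynlt2a1 kept them in the 15 that tested them, since the limit of 5 CPM on average leaves them out.

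Genes that load and carry peptides for T cells were the next group with many higher members. Of 26 antigen presentation genes 13 rose and 0 fell, beside 0.655% of all genes, with a median of 0.62. In 20 the groups did not overlap, beside 8.61% of all genes, and 25 had a positive change. Without the libraries high in sublingual markers 9 rose, and leaving out single libraries gave 10 to 14. In IR_30d 15 rose, beside 3.19% of all genes, with a median of 0.71. The direct contrast with IR_30d called 0, with a median of -0.05 and 1 member lower at an unadjusted p under 0.05. DESeq2 and limma-voom also called 0 there. The list's mean log2 CPM was 4.01 to 4.37 in NT and 4.80 to 4.83 in IR_iEV_30d. At day 4 it was not above NT, at 3.79 to 3.88 in IR_4d and 3.99 to 4.17 in IR_iEV_4d.

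MHC class I molecules show peptides from inside the cell to cytotoxic T cells, and B2m is their shared light chain. It read 123, 165 and 173 CPM in NT and 293, 294 and 265 CPM in IR_iEV_30d, so the lowest treated library was above the highest nontreated one (0.89 ± 0.12, adjusted p = 0.000316). The heavy chain gene H2-K1 read 260.2, 325 and 303 CPM in NT and 480.5, 515 and 524 CPM in IR_iEV_30d (0.78 ± 0.10, adjusted p = 0.000419). H2-D1 changed by 0.66 ± 0.10 (adjusted p = 0.00196), and Tap1, a subunit of the peptide transporter, read 16.4, 15.3 and 21.0 CPM in NT and 28.3, 28.3 and 31.8 CPM in IR_iEV_30d (0.74 ± 0.11, adjusted p = 0.000976). In each of these genes NT replicate 1 or 2 was the lowest library. Of the nonclassical H2-Q genes, H2-Q6 changed by 1.57 ± 0.21 (adjusted p = 0.000421), H2-Q7 by 1.38 ± 0.29 (adjusted p = 0.029) and H2-Q4 by 0.80 ± 0.16 (adjusted p = 0.0134). These copies are nearly identical, and how reads shared between them were counted is not given in the sources used here. H2-Q7 lost its call without NT replicate 1 (adjusted p = 0.143), NT replicate 2 (adjusted p = 0.137), IR_iEV_30d replicate 1 (adjusted p = 0.0606) or IR_iEV_30d replicate 2 (adjusted p = 0.0909). H2-Q4 lost it without NT replicate 2 (adjusted p = 0.0585) or IR_iEV_30d replicate 3 (adjusted p = 0.0567).

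The immunoproteasome subunit Psmb8, which trims peptides for class I, read 6.10, 5.72 and 8.21 CPM in NT and 11.2, 12.1 and 11.0 CPM in IR_iEV_30d (0.77 ± 0.17, adjusted p = 0.029). The groups did not overlap, yet 5 of the 6 fits without a single library left it short of the threshold: the adjusted p was 0.128 without NT replicate 1, 0.136 without NT replicate 2 and 0.0597, 0.0807 and 0.0502 without IR_iEV_30d replicates 1, 2 and 3. Nlrc5, the activator of class I genes, changed by 0.57 ± 0.21 and did not pass (adjusted p = 0.253).

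MHC class II molecules show peptides taken up from outside and are typical of macrophages, dendritic cells and B cells. H2-Ab1 read 46.5, 58.3 and 62.2 CPM in NT and 86.8, 104 and 86.5 CPM in IR_iEV_30d (0.73 ± 0.11, adjusted p = 0.001). H2-Eb1 read 48.9, 55.0 and 54.5 CPM in NT and 79.4, 87.1 and 78.4 CPM in IR_iEV_30d (0.63 ± 0.10, adjusted p = 0.00161). Both were higher in every treated library than in every nontreated one. H2-Aa changed by 0.61 ± 0.11 (adjusted p = 0.00921), and the class II chaperone Cd74 read 147, 166 and 177 CPM in NT and 265, 282 and 257 CPM in IR_iEV_30d (0.71 ± 0.11, adjusted p = 0.00219). H2-Aa lost its call in the fit of the 6 libraries and without the 2 high in sublingual markers (adjusted p = 0.124 in the latter). Ctss, the protease that clears Cd74 from class II, changed by 0.72 ± 0.13 (adjusted p = 0.00921) and lost its call without NT replicate 1 (adjusted p = 0.0549). Ciita, the master activator of class II genes, read 3.09, 2.80 and 3.86 CPM in NT and 5.54, 4.87 and 5.89 CPM in IR_iEV_30d. The groups did not overlap but the change of 0.73 ± 0.22 did not pass (adjusted p = 0.147).

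The change of the class II genes in IR_30d was close in size to that in IR_iEV_30d: 0.74 ± 0.11 in H2-Ab1, 0.64 ± 0.10 in H2-Eb1 and 0.69 ± 0.11 in Cd74. The direct contrast gave -0.01 ± 0.11, -0.01 ± 0.10 and 0.02 ± 0.11 for these genes, with adjusted p of 0.973, 0.971 and 0.964. At day 4 the 3 genes stood below NT in group mean, with H2-Ab1 at 30.9 ± 1.37 CPM (SD, n = 3) in IR_4d and 40.3 ± 1.55 CPM in IR_iEV_4d against 55.7 ± 8.18 CPM in NT. The day 30 level in IR_iEV_30d was 92.3 ± 9.76 CPM and in IR_30d 93.2 ± 9.69 CPM.

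Markers of the cells that carry class II moved with it in part. Of 33 macrophage and monocyte markers 3 rose and 0 fell, beside 0.655% and 0.449% of all genes, with a median of 0.46. DESeq2 called 7, beside 224 of 15286 genes higher, and limma-voom 3, beside 106 of 16042. With edgeR 18 were higher and 1 lower at an unadjusted p under 0.05, beside 2077 of all 16042 genes in either direction. In 16 the IR_iEV_30d libraries all lay above NT, beside 8.61% of all genes. In IR_30d 22 rose, beside 3.19% of all genes. The direct contrast with IR_30d called 0 with edgeR, 3 lower with DESeq2 and 2 lower with limma-voom. With edgeR 19 were lower there at an unadjusted p under 0.05, beside 2066 of all 16042 genes in either direction. The list's mean log2 CPM was 2.64 to 2.81 in NT, 3.36 to 3.63 in IR_30d and 2.80 to 3.32 in IR_iEV_30d, where replicate 3 was within the NT range. Of 10 B and plasma cell markers 0 passed, and of 21 T and NK cell markers 0 passed, with edgeR, DESeq2 or limma-voom (1 of each list was higher at an unadjusted p under 0.05 with edgeR). The range of the T and NK cell list was -0.66 to -0.51 in IR_iEV_30d and -1.51 to -1.15 in NT. The part of these cells in the antigen presentation values was not tested. The called macrophage genes were Ctss, Tyrobp and Mpeg1. Tyrobp, a signalling adaptor of myeloid cells, changed by 0.76 ± 0.15 (adjusted p = 0.0166) and lost its call without NT replicate 1 (adjusted p = 0.073), NT replicate 2 (adjusted p = 0.0744) or IR_iEV_30d replicate 1 (adjusted p = 0.0768).

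Mpeg1, a pore-forming protein of macrophages, read 25.8, 29.0 and 30.4 CPM in NT and 47.2, 45.8 and 35.0 CPM in IR_iEV_30d (0.59 ± 0.12, adjusted p = 0.019). Its call was lost without NT replicate 1 (adjusted p = 0.101), NT replicate 2 (adjusted p = 0.0604), IR_iEV_30d replicate 1 (adjusted p = 0.0783) or IR_iEV_30d replicate 2 (adjusted p = 0.0702). Siglec1, a sialic acid receptor of macrophages that is on none of the lists, read 4.38, 4.78 and 6.18 CPM in NT and 12.1, 11.2 and 8.33 CPM in IR_iEV_30d (1.03 ± 0.17, adjusted p = 0.00412). Its call against NT was lost in the fit of the 6 libraries and without the 2 high in sublingual markers (adjusted p = 0.0746 in the latter). It was higher again in IR_30d, at 15.0, 19.7 and 19.0 CPM, and was the only one of the 105 higher genes that the direct contrast called, lower in IR_iEV_30d (-0.76 ± 0.17, adjusted p = 0.0416). That call was lost with the replicate block (adjusted p = 0.0757), with sublingual and adipose covariates (adjusted p = 0.112) and without 6 of 9 single libraries. C1qb, a subunit of complement C1q made by macrophages, changed by 0.49 ± 0.12 from NT (adjusted p = 0.054).

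Of 51 interferon-stimulated genes 3 rose in IR_iEV_30d and 0 fell, beside 0.655% and 0.449% of all genes, with a median of 0.20. With edgeR 13 were higher and 2 lower at an unadjusted p under 0.05, beside 2077 of all 16042 genes in either direction. DESeq2 called 8, beside 224 of 15286 genes higher, and limma-voom 0. In IR_30d 20 rose, beside 3.19% of all genes, with a median of 0.73. The direct contrast called 3 lower, beside 0.63% of all genes, with a median of -0.62. DESeq2 called 14 lower there and limma-voom 8. With edgeR 35 were lower there at an unadjusted p under 0.05, beside 2066 of all 16042 genes in either direction. The list's mean log2 CPM was 2.43 to 2.90 in NT, 3.40 to 3.58 in IR_30d and 2.72 to 3.07 in IR_iEV_30d. The IR_iEV_30d range thus overlapped that of NT and lay below that of IR_30d.

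The called members were the antiviral Oas3, Oas1g and Bst2, whose promoters are shown above. Oas3, which makes the second messenger of the RNase L pathway, read 0.401, 0.786 and 0.629 CPM in NT and 2.27, 2.43 and 1.11 CPM in IR_iEV_30d (1.67 ± 0.34, adjusted p = 0.0164). Bst2, or tetherin, which holds budding virus at the cell surface, read 8.62, 7.92 and 8.76 CPM in NT and 14.4, 13.6 and 11.5 CPM in IR_iEV_30d (0.64 ± 0.14, adjusted p = 0.0325). Oas1g, of the same family as Oas3, changed by 2.31 ± 0.51 from under 0.4 CPM in every NT library (adjusted p = 0.0331). These calls rested on single libraries. Oas3 lost its call without NT replicate 1 (adjusted p = 0.0855), NT replicate 3 (adjusted p = 0.0524), IR_iEV_30d replicate 1 (adjusted p = 0.0597) or IR_iEV_30d replicate 2 (adjusted p = 0.0669). Bst2 lost it without NT replicates 1, 2 or 3 (adjusted p = 0.0843, 0.126 and 0.0629) or IR_iEV_30d replicates 1 or 2 (adjusted p = 0.103 and 0.0807). Oas1g lost it without NT replicates 1 or 2 (adjusted p = 0.137 and 0.126) or IR_iEV_30d replicates 2 or 3 (adjusted p = 0.0653 and 0.129).

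Oas2, of the same family, passed in IR_30d but not here. It read 2.38, 1.76 and 1.96 CPM in NT, 3.75, 4.64 and 3.04 CPM in IR_iEV_30d and 6.07, 10.6 and 8.39 CPM in IR_30d. Its 3 groups were in that order without overlap, and the change from NT in IR_iEV_30d did not pass (0.90 ± 0.26, adjusted p = 0.127). In the direct contrast it was lower than in IR_30d (-1.14 ± 0.25, adjusted p = 0.0419). That call was lost with the replicate block (adjusted p = 0.0646), without IR_iEV_30d replicates 1 or 3 (adjusted p = 0.131 and 0.209), NT replicates 2 or 3 (adjusted p = 0.0533 and 0.0599) or IR_30d replicates 2 or 3 (adjusted p = 0.267 and 0.134). Irf7, which drives interferon genes, read 9.94, 12.9 and 16.9 CPM in NT and 27.8, 16.9 and 24.4 CPM in IR_iEV_30d (0.80 ± 0.19, adjusted p = 0.0513).

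Of 21 chemokine genes 2 rose and 0 fell, beside 0.655% and 0.449% of all genes. Ccl8, which attracts monocytes, read 0.0859, 0.157 and 0.351 CPM in NT and 2.61, 2.98 and 1.06 CPM in IR_iEV_30d (3.37 ± 0.61, adjusted p = 0.00881). It lost its call without NT replicate 1 (adjusted p = 0.0523) or NT replicate 2 (adjusted p = 0.0566), and limma-voom did not call it (adjusted p = 0.148). Ccl9, made by macrophages, changed by 0.93 ± 0.22 (adjusted p = 0.0448), and leaving out any of the 6 libraries left it short of the threshold, with adjusted p from 0.0524 to 0.157. The macrophage, interferon and chemokine lists thus held 3, 3 and 2 called members, all above the 0.655% of all genes, where antigen presentation held 13.

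**Figure D3:**
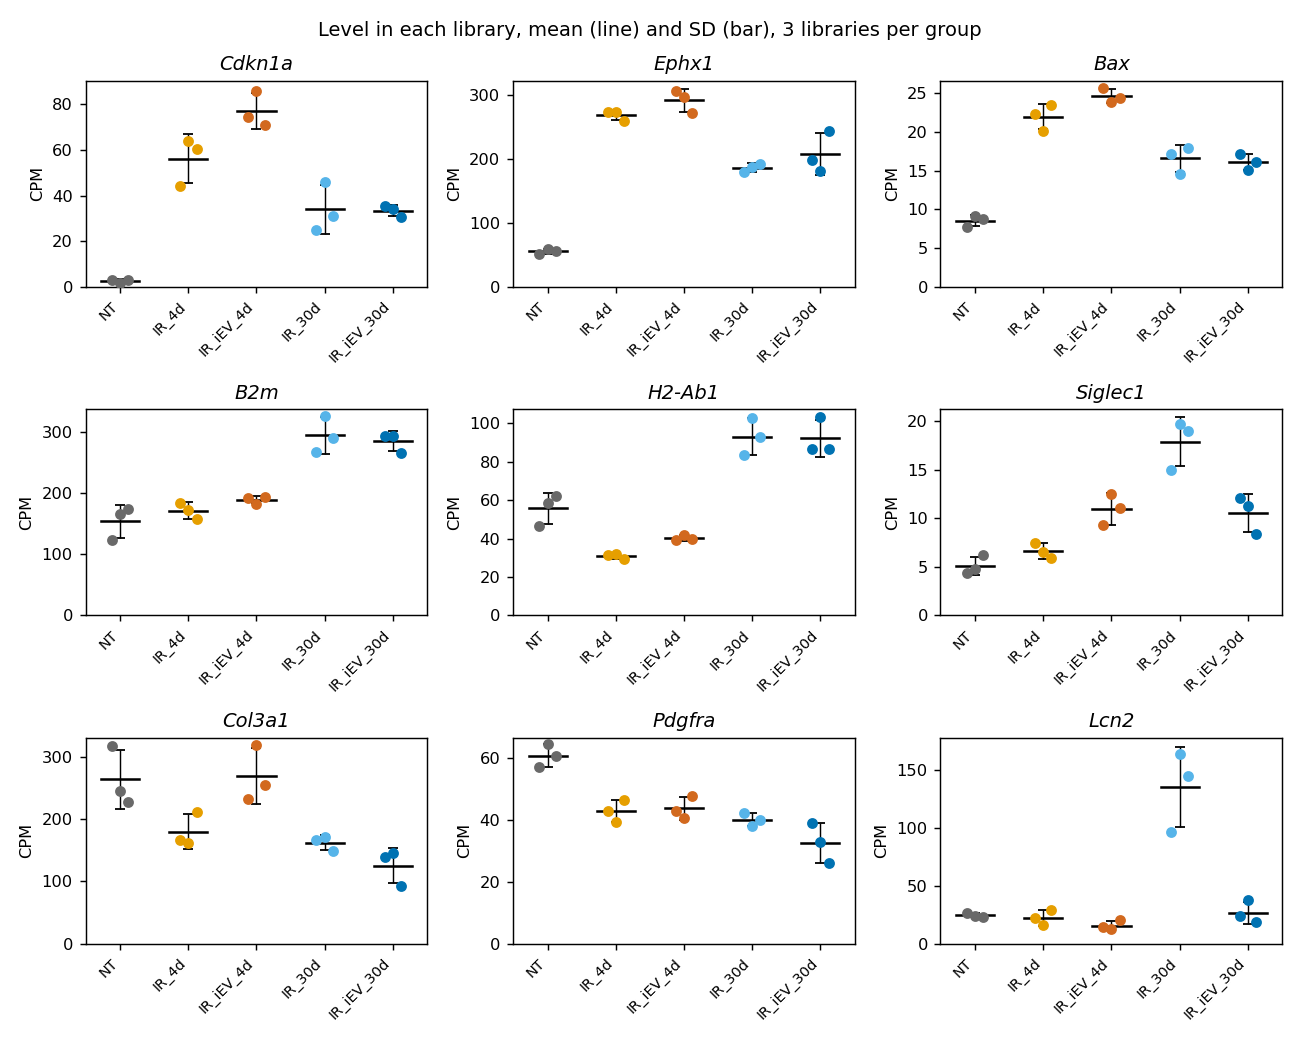
CPM of 9 genes in each library of the 5 groups (points), with the mean as a line and the SD as a bar, n = 3 per group, on axes from 0. Cdkn1a, Ephx1, Bax, B2m and H2-Ab1 lie above NT in every IR_iEV_30d library, Siglec1 lies between NT and IR_30d, Col3a1 and Pdgfra lie below NT, and Lcn2 overlaps NT.

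Matrix and fibroblast genes were lower in many members. Of 42 tested 17 fell and 0 rose, beside 0.449% of all genes, with a median of -0.46. In 23 the IR_iEV_30d libraries all lay below NT, beside 8.43% of all genes, and 33 had a negative change. In IR_30d 12 fell and 1 rose, beside 1.29% and 3.19% of all genes, with a median of -0.25. The direct contrast with IR_30d called 1 lower and 0 higher, beside 0.63% and 0.168% of all genes, with a median of -0.23. With edgeR 10 were lower and 0 higher there at an unadjusted p under 0.05, beside 2066 of all 16042 genes in either direction. The list's mean log2 CPM was 5.05 to 5.13 in NT, 4.83 to 4.96 in IR_30d and 4.77, 4.77 and 4.31 in IR_iEV_30d replicates 1, 2 and 3. At day 4 it was 4.9 to 5.0 in IR_4d and, on both sides of NT, 4.93 to 5.20 in IR_iEV_4d. Without NT replicate 1 the number that fell was 11, and with NT replicate 1 and IR_iEV_30d replicate 2 both left out it was 9. Nerve markers ran from 2.30 to 2.34 in NT and 2.46 to 2.69 in IR_iEV_30d, adipose markers from -0.63 to 1.45 and -0.71 to 1.10, and endothelial markers from 2.09 to 2.60 and 2.08 to 2.17; their part in the matrix values was not tested.

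The fibril-forming collagens give tissue its tensile strength. Col1a1, the main chain of collagen I, read 204, 213 and 174 CPM in NT and 114, 108 and 93.7 CPM in IR_iEV_30d (-0.90 ± 0.13, adjusted p = 0.00066). Col1a2, its partner chain, read 208, 211 and 197 CPM in NT and 137, 129 and 116 CPM in IR_iEV_30d (-0.69 ± 0.10, adjusted p = 0.00121). Both chains were lower in every treated library, and replicate 3 was the lowest in each. Col3a1, the chain of collagen III, read 318, 245 and 228 CPM in NT and 139, 145 and 92.7 CPM in IR_iEV_30d (-1.07 ± 0.18, adjusted p = 0.00579). NT replicate 1 was its highest library. Col3a1 kept its call in each fit without a single library and lost it in the fit of the 6 libraries (adjusted p = 0.0504).

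The minor fibril chains that set fibril width, Col5a1, Col5a2 and Col5a3, changed by -0.75 ± 0.15 (adjusted p = 0.0175), -0.81 ± 0.15 (adjusted p = 0.0105) and -1.26 ± 0.25 (adjusted p = 0.0231). Their calls were less firm. Without NT replicate 1 the adjusted p was 0.09 for Col5a1, 0.0581 for Col5a2 and 0.11 for Col5a3, and without NT replicate 2 it was 0.0848 for Col5a1 and 0.0587 for Col5a3. Col5a1 was also lost without IR_iEV_30d replicate 1 (adjusted p = 0.0532) or 3 (adjusted p = 0.0583).

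Collagen VI forms beaded filaments around cells. Its chain Col6a3 read 75.4, 74.9 and 64.3 CPM in NT, 42.7, 34.7 and 30.5 CPM in IR_iEV_30d and 53.9, 58.7 and 47.8 CPM in IR_30d (-0.99 ± 0.13 against NT, adjusted p = 0.000316). The 3 groups did not overlap, and IR_iEV_30d was also lower than IR_30d in the direct contrast (-0.57 ± 0.13, adjusted p = 0.0459). It was the only member of the list that edgeR called in that contrast, where DESeq2 and limma-voom each called 3. The edgeR call was lost with the replicate block (adjusted p = 0.0827), with sublingual and adipose covariates (adjusted p = 0.149), with upper quartile scaling (adjusted p = 0.051) and without 7 of 9 single libraries. The chains Col6a1 and Col6a2 changed by -0.65 ± 0.12 (adjusted p = 0.00921) and -0.61 ± 0.12 (adjusted p = 0.0165) from NT. Col6a1 lost its call without NT replicate 2 (adjusted p = 0.0549), and Col6a2 without NT replicates 1 or 2 (adjusted p = 0.0804 and 0.0916) or IR_iEV_30d replicates 2 or 3 (adjusted p = 0.0807 and 0.0909). Col15a1, a collagen of the basement membrane zone, read 105, 75.7 and 68.0 CPM in NT and 39.4, 43.3 and 40.0 CPM in IR_iEV_30d (-1.02 ± 0.13, adjusted p = 0.000316).

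Over all 36 collagen genes tested 10 fell and 0 rose, beside 0.449% and 0.655% of all genes. Of the 36, 30 had a negative change, with a median of -0.38. The network collagens of the basement membrane did not pass: Col4a1 changed by -0.37 ± 0.09 (adjusted p = 0.0681) and Col4a2 by -0.39 ± 0.10 (adjusted p = 0.06), with groups that did not overlap. Of 11 laminin genes, which build the basement membrane, 4 fell and 1 rose, beside 0.449% and 0.655% of all genes. Lama2 read 67.2, 75.2 and 65.3 CPM in NT and 42.2, 35.0 and 25.2 CPM in IR_iEV_30d (-1.02 ± 0.17, adjusted p = 0.00881), and Lamb1 read 57.8, 57.2 and 52.0 CPM in NT and 31.0, 34.7 and 26.0 CPM in IR_iEV_30d (-0.87 ± 0.11, adjusted p = 0.000316). Lama2 lost its call without the 2 libraries high in sublingual markers (adjusted p = 0.0985). Lama5, an epithelial laminin chain, went the other way, at 102, 166 and 155 CPM in NT and 222, 214 and 269 CPM in IR_iEV_30d (0.73 ± 0.14, adjusted p = 0.00997). The other laminins that fell were Lamc1 (-0.40 ± 0.08, adjusted p = 0.0164) and Lamc3 (-0.46 ± 0.10, adjusted p = 0.0396). Lamc1 lost its call without NT replicates 1 or 2 (adjusted p = 0.0737 and 0.09) or IR_iEV_30d replicates 1 or 2 (adjusted p = 0.0683 and 0.068). Lamc3 lost it without NT replicates 2 or 3 (adjusted p = 0.171 and 0.112) or IR_iEV_30d replicates 2 or 3 (adjusted p = 0.138 and 0.0914).

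Elastic fibres consist of elastin on a scaffold of fibrillin. Eln, elastin, read 23.4, 20.3 and 12.3 CPM in NT and 8.35, 9.42 and 6.28 CPM in IR_iEV_30d (-1.22 ± 0.22, adjusted p = 0.0105). It lost its call without NT replicate 1 (adjusted p = 0.052), NT replicate 2 (adjusted p = 0.0553) or IR_iEV_30d replicate 3 (adjusted p = 0.0569). Fbn1, fibrillin, read 53.7, 52.4 and 42.1 CPM in NT and 34.1, 28.3 and 22.05 CPM in IR_iEV_30d (-0.81 ± 0.14, adjusted p = 0.00511). It lost its call in the fit of the 6 libraries and without the 2 high in sublingual markers (adjusted p = 0.0892 in the latter). Loxl1, which crosslinks elastin, changed by -0.77 ± 0.13 (adjusted p = 0.00481). All 3 parts of the elastic fibre were thus lower in every treated library than in any nontreated one.

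Receptors and surface proteins of fibroblasts fell too. Pdgfra, a receptor for platelet-derived growth factors on fibroblasts, read 57.2, 64.6 and 60.6 CPM in NT and 38.9, 33.0 and 26.0 CPM in IR_iEV_30d (-0.90 ± 0.12, adjusted p = 0.000316). Cd248, or endosialin, of fibroblasts and pericytes, read 12.4, 13.4 and 12.9 CPM in NT and 5.68, 6.95 and 4.39 CPM in IR_iEV_30d (-1.19 ± 0.16, adjusted p = 0.000473). In both the NT libraries were close together and the treated libraries far below them. Pi16, a marker of adventitial fibroblasts, changed by -0.98 ± 0.18 (adjusted p = 0.01) and lost its call without IR_iEV_30d replicate 2 (adjusted p = 0.0518). Pdgfrb, the related receptor of pericytes, changed by -0.59 ± 0.12 (adjusted p = 0.0231) and lost it without NT replicate 1 (adjusted p = 0.128) or IR_iEV_30d replicates 1, 2 or 3 (adjusted p = 0.0747, 0.0838 and 0.0609). Sparc, a collagen-binding glycoprotein, had the smallest change of the 17 at -0.46 ± 0.10 (adjusted p = 0.0208), lost in 5 of the 6 fits without a single library, with adjusted p from 0.0537 without IR_iEV_30d replicate 3 to 0.121 without NT replicate 2. The others were 0.0543 without NT replicate 1, 0.0597 without IR_iEV_30d replicate 1 and 0.0898 without IR_iEV_30d replicate 2.

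**Figure D4:**
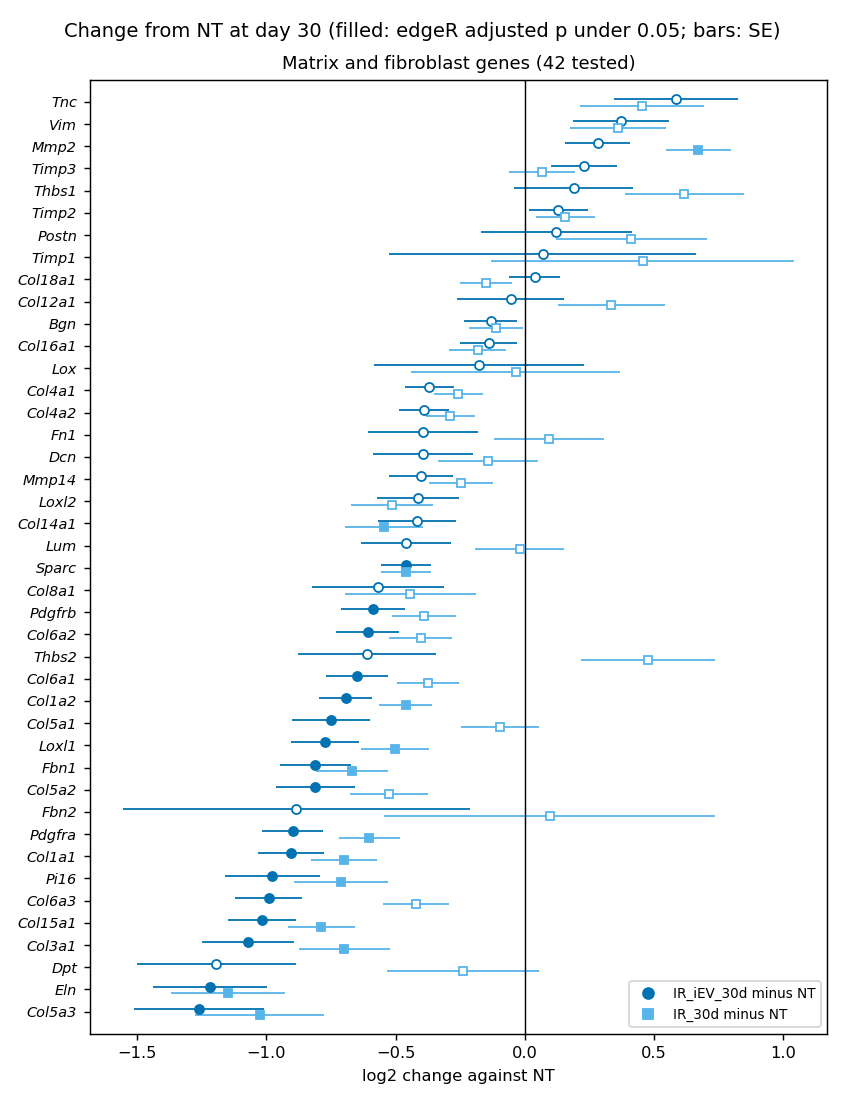
Points are log2 changes from NT with SE bars for the 42 matrix and fibroblast genes tested, dark circles for IR_iEV_30d and light squares for IR_30d, filled where the edgeR adjusted p was under 0.05. In IR_iEV_30d 17 circles are filled, all to the left of 0, from -0.46 (Sparc) to -1.26 (Col5a3).

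Proteases and signalling proteins of the matrix were among the largest falls. Of 22 ADAMTS and ADAMTS-like genes 3 fell and 0 rose, beside 0.449% and 0.655% of all genes. Adamts9, which cuts proteoglycans, read 16.1, 10.00 and 8.63 CPM in NT and 5.91, 4.77 and 4.20 CPM in IR_iEV_30d (-1.22 ± 0.20, adjusted p = 0.00359). Adamtsl2, a fibrillin-binding relative without protease activity, read 10.0, 9.59 and 9.74 CPM in NT and 5.14, 4.52 and 3.96 CPM in IR_iEV_30d (-1.11 ± 0.21, adjusted p = 0.00921). Both fell to nearly the same level in IR_30d, where the group means were 5.07 ± 0.855 and 4.38 ± 0.376 CPM (SD, n = 3). Both lost their calls without the 2 libraries high in sublingual markers (adjusted p = 0.0803 for Adamtsl2). Adamts9 also lost it in the fit of the 6 libraries (adjusted p = 0.0815). Adamts12 had the largest fall the naming rule gave (-1.57 ± 0.34, adjusted p = 0.0397) and lost its call without NT replicates 1, 2 or 3 (adjusted p = 0.15, 0.0953 and 0.0605) or IR_iEV_30d replicate 2 (adjusted p = 0.0898).

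Of 30 genes of TGF-beta and CCN signalling 1 rose and 1 fell, beside 0.655% and 0.449% of all genes, and both are secreted CCN proteins. Ccn4 read 3.84, 2.70 and 3.14 CPM in NT and 0.682, 0.961 and 0.193 CPM in IR_iEV_30d (-2.43 ± 0.38, adjusted p = 0.00205). Ccn5 read 0.372, 0.283 and 0.629 CPM in NT and 1.56, 2.05 and 2.00 CPM in IR_iEV_30d (2.08 ± 0.35, adjusted p = 0.00403). Ccn5 lost its call in the fit of the 6 libraries and without the 2 high in sublingual markers (adjusted p = 0.0674 in the latter). The family members thus moved in opposite directions, as they did in IR_30d (-1.94 ± 0.37 and 1.66 ± 0.35).

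Falls outside the matrix were spread over several functions. Cacna1g, a subunit of a T-type calcium channel, read 10.8, 12.5 and 11.2 CPM in NT and 4.57, 5.57 and 2.95 CPM in IR_iEV_30d (-1.41 ± 0.20, adjusted p = 0.000867). Crabp1, which binds retinoic acid, changed by -1.48 ± 0.29 (adjusted p = 0.0127) and lost its call without NT replicate 1 (adjusted p = 0.0643) or IR_iEV_30d replicates 1 or 2 (adjusted p = 0.055 and 0.0658). Its day 4 levels were above NT in group mean, at 5.37 ± 0.805 CPM in IR_4d and 6.34 ± 0.760 CPM in IR_iEV_4d against 3.13 ± 0.833 CPM (SD, n = 3). Of 30 genes of amino acid stress 2 fell and 1 rose, beside 0.449% and 0.655% of all genes. Gpt2, an alanine aminotransferase, fell from 78.8, 73.1 and 74.2 CPM to 53.3, 50.6 and 53.7 CPM (-0.52 ± 0.08, adjusted p = 0.00302). Its call was lost in the fit of the 6 libraries and without the 2 high in sublingual markers (adjusted p = 0.0629 in the latter). Slc7a1, a carrier of cationic amino acids, also fell (-0.50 ± 0.11, adjusted p = 0.028). It lost its call without NT replicate 2 (adjusted p = 0.165) or IR_iEV_30d replicates 1 or 2 (adjusted p = 0.069 and 0.111). Sesn2 of the p53 list was the 1 member of that list that rose.

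The granular tubule list stood above NT in IR_30d and had no called member in IR_iEV_30d. Of 25 products of the granular convoluted tubules 0 passed with edgeR. An unadjusted p under 0.05 was found in 3, 2 higher and 1 lower, beside 2077 of all 16042 genes in either direction. DESeq2 called 1 and limma-voom 0. The list's median was 0.19, with 24 members positive, but its direction turned with the libraries: the median was -0.152, with 20 members negative, without the 2 libraries high in sublingual markers. It was -0.007 without IR_iEV_30d replicate 2 alone and 0.063 without NT replicate 1 alone. The list's mean log2 CPM was 8.46 to 8.91 in NT and 8.87, 9.77 and 8.75 in IR_iEV_30d replicates 1, 2 and 3. In IR_30d it was 9.83 to 10.14. There 18 members rose and 1 fell, beside 3.19% and 1.29% of all genes, with a median of 1.24. The direct contrast called 13 lower, beside 0.63% of all genes, while DESeq2 called 17 lower and limma-voom 12. Klk1b22, a kallikrein with near-identical copies, read 3809, 5309 and 4975 CPM in NT, 5175, 7253 and 5311 CPM in IR_iEV_30d and 10932, 11674 and 12690.0 CPM in IR_30d. The NT and IR_iEV_30d libraries overlapped (0.33 ± 0.17, adjusted p = 0.409), and all 3 IR_30d libraries lay above both. Klk1, the tissue kallikrein, had its treated libraries just below NT, at 5432, 3413 and 5491 against 10365, 6023 and 5539.6 CPM (-0.61 ± 0.25, adjusted p = 0.321).

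Single genes of other lists also stood apart from NT in IR_30d. Of 25 NF-kB subunits and feedback genes 0 passed with edgeR, DESeq2 or limma-voom, with a median of 0.17. With edgeR 3 were higher and 1 lower at an unadjusted p under 0.05, beside 2077 of all 16042 genes in either direction. In IR_30d 2 rose, beside 3.19% of all genes, with a median of 0.15. Its list levels of 2.79 to 3.08 overlapped the 2.5 to 2.82 of NT. Nfkb2, the p100 subunit, read 31.8, 42.5 and 32.0 CPM in NT, 40.9, 39.5 and 39.8 CPM in IR_iEV_30d and 84.9, 90.2 and 78.9 CPM in IR_30d. NT and IR_iEV_30d overlapped (0.18 ± 0.10, adjusted p = 0.467). Lcn2, an iron-binding acute phase protein, read 26.5, 23.8 and 23.3 CPM in NT, 23.9, 37.4 and 18.4 CPM in IR_iEV_30d and 96.5, 164 and 145 CPM in IR_30d (0.11 ± 0.30 from NT, adjusted p = 0.906), and without IR_iEV_30d replicate 2 the estimate was -0.20. Hsd11b1, which activates glucocorticoids, read 42.3, 30.9 and 29.5 CPM in NT, 46.2, 46.6 and 38.4 CPM in IR_iEV_30d and 117, 125 and 102 CPM in IR_30d (0.35 ± 0.14 from NT, adjusted p = 0.317). These values do not show equality with NT.

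Of 22 genes of acinar fluid secretion 0 passed with edgeR, DESeq2 or limma-voom, with a median of 0.05. With edgeR 2 had an unadjusted p under 0.05, both higher, beside 2077 of all 16042 genes in either direction. In IR_30d 2 fell, beside 1.29% of all genes, with a median of -0.07. Its list levels of 6.00 to 6.05 lay within the 5.96 to 6.11 of NT. Aqp5, the water channel of acinar cells, read 271, 288 and 286 CPM in NT, 259, 267 and 319 CPM in IR_iEV_30d and 192, 210.0 and 216 CPM in IR_30d. The IR_iEV_30d libraries spread on both sides of NT (-0.00 ± 0.10, adjusted p = 0.996).

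Small shifts shared by many members appeared in lists with at most 1 gene called by edgeR against NT. All 67 ribosomal protein genes had a positive change, with a median of 0.18 beside -0.004 for all genes, and in 39 the groups did not overlap, beside 8.61% of all genes. With edgeR only Rps19 passed, while DESeq2 called 4 members higher and limma-voom 2. Rps19 read 61.8, 61.8 and 57.8 CPM in NT and 90.6, 76.4 and 87.8 CPM in IR_iEV_30d (0.49 ± 0.10, adjusted p = 0.0129). It lost its call without NT replicate 3 (adjusted p = 0.0524) or IR_iEV_30d replicate 1 (adjusted p = 0.0525), and its pseudogenes make the count uncertain. The ribosomal list's mean log2 CPM was 6.70 to 6.74 in NT, 6.63 to 6.77 in IR_30d and 6.81 to 6.97 in IR_iEV_30d. Of 34 genes of the unfolded protein response and secretion 33 had a negative change, with a median of -0.20. With edgeR 0 passed, and 13 were lower at an unadjusted p under 0.05, beside 2077 of all 16042 genes in either direction. DESeq2 called 2 lower, beside 186 of 15286 genes, and limma-voom 0. In 11 the IR_iEV_30d libraries all lay below NT, beside 8.43% of all genes. In IR_30d 3 rose and 1 fell, beside 3.19% and 1.29% of all genes, with a median of 0.04. The direct contrast with IR_30d called 6 lower, beside 0.63% of all genes, with a median of -0.28. There DESeq2 called 9 lower and limma-voom 6. Hspa5, the main chaperone of the endoplasmic reticulum, read 645, 606 and 519 CPM in NT and 518, 555 and 442 CPM in IR_iEV_30d, which overlap (-0.22 ± 0.12, adjusted p = 0.44).

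**Figure D5:**
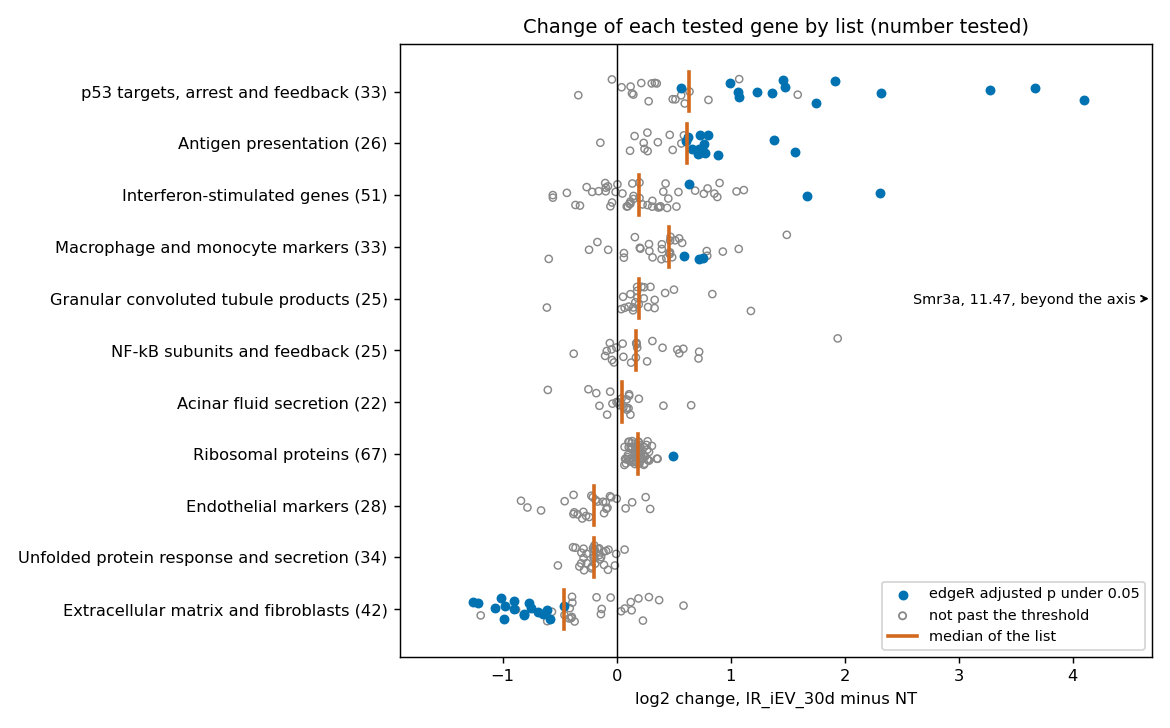
Each point is the log2 change of a tested gene in IR_iEV_30d against NT, by list, with the list's median as an orange bar and genes past the edgeR threshold in blue; Smr3a (11.47 ± 4.47, adjusted p = 0.321) lies beyond the axis, was near 0 in all 3 NT libraries, so that its size is not interpretable, and was high in IR_iEV_30d replicate 2 alone. Blue points lie to the right in the p53 and antigen presentation lists (14 and 13) and to the left in the matrix list (17), and the medians of the ribosomal and secretion lists sit at 0.18 and -0.20 with at most 1 blue point.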

How the data were processed

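Bulk RNA of 15 submandibular gland libraries, 3 in each of 5 groups, was sequenced after TRIzol extraction and NEXTFLEX Rapid Directional library preparation, per the labels' protocols. The authors deposited whole-number read counts, not normalized, for 21013 gene symbols, of which 15 were at 0 throughout. The submitters' processing notes name TopHat, HTSeq, DESeq2 and the build GRCm39 without versions. The annotation and strand setting are not given in the sources used here, so antisense and overlapping genes cannot be told apart, and no coordinates come from the counts. Every column was matched to a sample by its name.

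From the counts, edgeR 4.0.16 (R 4.3.3) was run with TMM scaling, filterByExpr (minimum count 10, minimum total 15), and robust quasi-likelihood F tests. All 15 libraries entered 1 model, which left 10 residual degrees of freedom. P-values were Benjamini-Hochberg adjusted over the 16042 genes tested, with a threshold of 0.05. The SE is the absolute log2 change divided by the square root of F. CPM uses effective library sizes, and list levels are means of log2 CPM with prior count 2. Precision is limited by 3 libraries per group as well as by totals of 29731963 to 52201098 counts in the 6 libraries compared. Replicates that differed by no more than counting noise were looked for in NT and IR_iEV_30d and none were found. The other groups were not checked in this way. The procedure was tested on simulated counts. Replicate numbers did not pair the libraries (correlations of -0.101, -0.12 and 0.041 between same-numbered libraries).

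The comparison, the gene lists and the naming rule were chosen with earlier results of these data known. Changes in IR_30d and the direct contrast come from the same model and are set side by side, since they share libraries. The rule started from called genes whose groups did not overlap and whose mean reached 2 CPM and took the 15 that rose most and the 15 that fell most, leaving out predicted, immunoglobulin, T cell receptor and mitochondrial genes. From each list the members with the lowest p, 4 at most, were added, as were a few fixed genes. The text names a choice from these. It also names called members of the p53, antigen presentation and matrix lists and of the laminin family, and Rps27l, Siglec1, Oas2, Nav1, Clca3a2, Trp53, Ciita, Nlrc5, Hspa5, Col4a1, Col4a2, Smr3a and the 5 genes called in the direct contrast, which were chosen after their values were seen. Ccnd2, Rev1 and Rnf169 were also chosen after their values were seen. Promoter sequences are RefSeq's for GRCm38.p6, a different build from the counts, matched by symbol. Alternatives were DESeq2 1.42.0, limma-voom (limma 3.58.1), other scalings and filters, the 6 libraries alone, the replicate number as a block, sublingual and adipose marker levels as covariates, no libraries high in sublingual markers, and leaving out each library. For the direct contrast, leaving out each IR_30d library was added after the data were seen.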

Additional observations from a re-analysis of the deposited data

Results flagged for a closer look

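Of the 177 genes that differed between IR_iEV_30d and NT, 5 also differed between IR_iEV_30d and IR_30d in the direct contrast with edgeR, so that the 2 irradiated groups stood at different distances from NT. Over all genes tested the direct contrast called 128 (0.798%). Siglec1 was above NT in both irradiated groups and lower in IR_iEV_30d than in IR_30d (-0.76 ± 0.17, adjusted p = 0.0416). Prrg3, a membrane protein with a Gla domain, was below NT in both, at 14.1, 15.2 and 12.7 CPM in NT, 9.94, 8.62 and 7.63 CPM in IR_iEV_30d and 4.83, 6.02 and 5.82 CPM in IR_30d, and thus higher in IR_iEV_30d than in IR_30d (0.65 ± 0.13, adjusted p = 0.0271). These 2 genes were nearer to NT in IR_iEV_30d.

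The other 3 were farther from NT in IR_iEV_30d. Ccdc80, a matrix-binding protein, read 14.5, 10.5 and 12.1 CPM in NT, 6.22, 7.18 and 5.14 CPM in IR_iEV_30d and 8.94, 10.6 and 12.5 CPM in IR_30d (-0.79 ± 0.17 in the direct contrast, adjusted p = 0.034). Col6a3 differed by -0.57 ± 0.13 (adjusted p = 0.0459). Gm46152, a predicted gene, differed by -0.65 ± 0.15 (adjusted p = 0.046), at 12.4, 8.04 and 8.40 CPM in IR_iEV_30d and 14.9, 16.2 and 14.2 CPM in IR_30d.

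All 5 adjusted p-values were close to the threshold. Calls were lost in 6 of the 9 fits without a single library for Siglec1, 4 for Prrg3, 5 for Ccdc80, 7 for Col6a3 and 6 for Gm46152. Without IR_iEV_30d replicate 3 the adjusted p-values were 0.21 for Siglec1, 0.0467 for Prrg3, 0.184 for Ccdc80, 0.22 for Col6a3 and 0.222 for Gm46152. Without IR_30d replicate 2 they were 0.214, 0.0791, 0.143, 0.246 and 0.214 in the same order, and without IR_30d replicate 3 they were 0.169, 0.0864, 0.171, 0.085 and 0.108. Without IR_30d replicate 1 Prrg3, Col6a3 and Gm46152 lost their calls (0.117, 0.133 and 0.121). Without IR_iEV_30d replicate 1 this held for Siglec1, Prrg3 and Ccdc80 (0.0715, 0.12 and 0.108), and without IR_iEV_30d replicate 2 for Siglec1, Col6a3 and Gm46152 (0.056, 0.093 and 0.11). Without NT replicate 2 it held for Siglec1 and Col6a3 (0.0544 and 0.0619), and without NT replicate 3 for Ccdc80, Col6a3 and Gm46152 (0.0514, 0.0546 and 0.0619).

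Other settings removed calls too. With sublingual and adipose marker levels as covariates all 5 were lost, at adjusted p of 0.112 for Siglec1, 0.0729 for Prrg3, 0.0645 for Ccdc80, 0.149 for Col6a3 and 0.094 for Gm46152. With the replicate number as a block Siglec1 (0.0757), Ccdc80 (0.0687) and Col6a3 (0.0827) were lost. Without both libraries high in sublingual markers Col6a3 (0.0953) and Gm46152 (0.0988) were lost, and with upper quartile scaling Col6a3 was (0.051). DESeq2 and limma-voom called all 5.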

How the results depend on the processing

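The 177 calls (105 higher, 72 lower) became 58 (43 and 15) when only the 6 libraries were fitted, 103 (73 and 30) without both NT replicate 1 and IR_iEV_30d replicate 2 (the 2 with sublingual markers) and 410 (224 and 186) with DESeq2. Leaving out single libraries gave 113 to 182 calls in all, with 71 to 106 higher and 41 to 77 lower. The p53 count of 14 moved by less than 1.5 times in every alternative. The antigen presentation count of 13 was 7 in the fit of the 6 libraries and 10 to 14 without single libraries. The matrix count of 17 was 6 in the fit of the 6 libraries, 9 without those 2 libraries and 11 to 17 without single libraries. Fewer libraries entered those fits; the cause of the DESeq2 count was not tested. Of the 177 genes 76 passed again without those 2 libraries and 57 in the fit of the 6 libraries. Of the 177 genes 41 passed in all 16 alternatives, another 7 passed in the 15 that tested them (they average under 5 CPM), 76 passed in every fit that left out a single library, and 0 changed sign. With the replicate number as a block 168 genes passed, 155 of them among the 177, and none of 3 libraries correlated best with its own number. Among named genes that did not pass, Aqp5 turned to 0.0115 with upper quartile scaling, 0.0102 with no filter, 0.00568 over genes averaging 5 CPM or more, 0.00615 in the 6 libraries alone and 0.00915 without those 2 libraries, and ran from -0.0918 to 0.0653 without single libraries. Lcn2 turned to -0.15 without those 2 libraries and ran from -0.20 to 0.33 without single libraries. Genes near 1 CPM or below, such as Oas1g, Ccl8 and Psrc1, rest on few counts, so their fold changes depend on the prior count.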
